A study of Homo sapiens with 27 samples.

Results

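The genes described here are 10 genes of amino acid supply known as targets of the transcription factor ATF4: ASNS, PHGDH, PSAT1, PSPH, SHMT2, MTHFD2, SLC7A11, SLC7A5, SLC3A2 and CHAC1. They were found by symbol from the Ensembl gene IDs of the count files and are 10 of the 60534 gene IDs that every library lists. All 10 passed the filter on low counts in both assays. RNA-seq and ribosome profiling (Ribo-seq, which sequences the mRNA fragments that ribosomes shield from RNase) were made from IMR90, a diploid human fibroblast line from fetal lung, in 5 states. Cycling cells were at 40 to 60% confluency and quiescent cells were arrested by contact inhibition. Senescent cells were made with 15 Gy of ionizing radiation and studied at 10 days, or with 50 µM of the topoisomerase II poison etoposide in 3 treatments over 10 days. Stressed cells, at the confluency of the cycling ones, were given 25 nM thapsigargin, which blocks the calcium pump of the endoplasmic reticulum, for 3 h. All states share the 1 line and no genetic change is named. Each state had 3 libraries per assay, except that cycling RNA-seq and both thapsigargin assays had 2.

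ATF4 is the effector of the integrated stress response, in which kinases that sense amino acid shortage, unfolded protein or other strain phosphorylate the initiation factor eIF2. Most translation then slows while ATF4 mRNA is translated more, and ATF4, paired with C/EBP proteins, binds composite elements in genes that make, import and recycle amino acids. ASNS makes asparagine. PHGDH, PSAT1 and PSPH make serine, and SHMT2 and MTHFD2 turn serine into glycine and one-carbon units in mitochondria. SLC7A11 and SLC7A5 are transporter light chains that pair with the heavy chain SLC3A2, and CHAC1 breaks down glutathione.

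The core of the composite element, TGATGNAA, was searched on both strands in RefSeq promoter windows of build GRCh38.p14, which run from 250 bases before to 50 after a start site. Windows were found for 7 of the 10 genes, 10 windows in all, and none for PSPH, SHMT2 and SLC7A11. A match was found in ASNS, SLC3A2 and CHAC1, while 3.62% of all 35116 windows of 300 bases hold one. The match of CHAC1 is the stricter TGATGCAA, which 0.866% of windows hold. The 3 stretches shown are those that hold a match, whatever the expression of the gene. In ASNS the match begins 68 bases before the start site and reads TGATGAAA on the gene's strand (chr7:97872409-97872658, minus strand). In CHAC1 it lies 209 bases before the start site and reads TGATGCAA on the opposite strand (chr15:40953221-40953470, plus strand). In SLC3A2 it lies 38 bases after the start site of 1 of its windows and reads TGATGTAA on the opposite strand (chr11:62881725-62881748, plus strand). Capitals mark the match. A match of letters is a description and not a bound site.
ASNS: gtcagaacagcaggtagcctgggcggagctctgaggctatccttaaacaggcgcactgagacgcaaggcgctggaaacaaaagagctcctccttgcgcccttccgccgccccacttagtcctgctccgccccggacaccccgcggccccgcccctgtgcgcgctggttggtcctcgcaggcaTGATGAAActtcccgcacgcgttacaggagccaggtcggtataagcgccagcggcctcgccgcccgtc
CHAC1: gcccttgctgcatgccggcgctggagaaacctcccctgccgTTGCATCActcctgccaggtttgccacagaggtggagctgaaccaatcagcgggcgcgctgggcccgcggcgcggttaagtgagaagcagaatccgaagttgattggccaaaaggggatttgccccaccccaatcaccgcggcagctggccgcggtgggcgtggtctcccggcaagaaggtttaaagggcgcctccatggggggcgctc
SLC3A2: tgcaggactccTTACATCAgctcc

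Gene counts per library ran from 20635503 to 57119841 in RNA-seq and from 1936976 to 19996104 in Ribo-seq. The thapsigargin libraries stood apart in more than treatment. Unmapped reads were 1.35 to 1.40% in their RNA-seq against 27.8 to 40.6% in the other states, and reads mapping to several places were 65.2 to 66.9% in their Ribo-seq against 19.8 to 31.9%. Their Ribo-seq counts also follow a longer gene list (62703 IDs) than the other Ribo-seq libraries (60664 IDs). Thapsigargin and these differences cannot be told apart. Summed fibroblast markers were 8962 to 14414 CPM in RNA-seq (counts per 1e6 after TMM scaling, the unit of every level given here), against at most 0.790 for epithelial, 2.62 for endothelial and 1.16 for blood markers. Summed, the proliferation markers MKI67, TOP2A, CCNB1 and LMNB1 were 663 to 707 CPM in cycling, 498 to 517 in thapsigargin, 214 to 414 in quiescent, 71.7 to 79.6 in irradiated and 43.5 to 59.9 in etoposide RNA-seq. MKI67 alone reached 148 CPM in 1 quiescent library, within the cycling range of 144 to 167, so the quiescent libraries are named by their labels. The part of these markers in the results was not tested.

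Against cycling cells, etoposide lowered 6 of the 10 genes in RNA-seq and the same 6 in Ribo-seq: PHGDH, PSAT1, PSPH, SHMT2, MTHFD2 and SLC7A5. Among all genes tested 17.8% and 17.6% were lower. Etoposide raised 0 of the 10 in RNA-seq and 0 in Ribo-seq by edgeR (background 16.8% and 16.4%), with 0 also at an unadjusted p under 0.05 and 0 by DESeq2. Radiation lowered 4 in RNA-seq (background 18.8%), PHGDH, PSPH, SLC7A5 and SLC3A2, and these with SHMT2 and SLC7A11 in Ribo-seq (background 22.6%). It raised 0 in RNA-seq by edgeR (background 16.2%, with 0 at an unadjusted p under 0.05 and 0 by DESeq2), and PSAT1 and ASNS in Ribo-seq (background 17.2%), or PSAT1 alone with pseudogene counts added. In quiescence SLC7A5 and SLC3A2 were lower in RNA-seq (background 10.4%), and SLC7A11 also in Ribo-seq (background 14.6%). Quiescent cells had 0 members higher in RNA-seq by edgeR (background 5.18%, with 1 at an unadjusted p under 0.05 and 0 by DESeq2), and PSAT1 and MTHFD2 higher in Ribo-seq (background 7.09%).

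Thapsigargin raised SLC7A5, SLC3A2 and CHAC1 in RNA-seq (background 11.7%) and PSAT1, SHMT2, MTHFD2, SLC3A2 and CHAC1 in Ribo-seq (background 20%). With counts that ignore strand SHMT2 was lower instead, which left 4 of 10 higher and 2 lower in Ribo-seq (background 19.6% and 24.4%), with a median of 0.435 (all genes -0.11). Thapsigargin lowered 0 members in RNA-seq by edgeR (background 12.8%, with 2 at an unadjusted p under 0.05 and 1 by DESeq2) and, with the stranded counts, only PHGDH in Ribo-seq (background 24.4%). The members' median log2 fold change was 0.25 in RNA-seq (all genes -0.03) and 0.48 in Ribo-seq (all genes -0.11) under thapsigargin. After etoposide it was -0.81 and -0.59 (all genes 0.00 and -0.01), and after radiation -0.27 and -0.45 (all genes 0.03 and -0.01). In quiescence it was -0.06 and 0.09 (all genes 0.02 and 0.02). These 4 comparisons share the cycling libraries. Every level and change given here is relative to the other genes of a library, since libraries were scaled to each other. A change in total mRNA or total translation cannot be seen in them. A gene was called at an adjusted p under 0.05 in edgeR's quasi-likelihood test. The labels do not say whether the libraries of a state came from separate cultures, so p-values measure only the spread between these libraries. In bulk libraries, fewer cells with an mRNA and less of it per cell cannot be told apart.

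**Figure D1:**
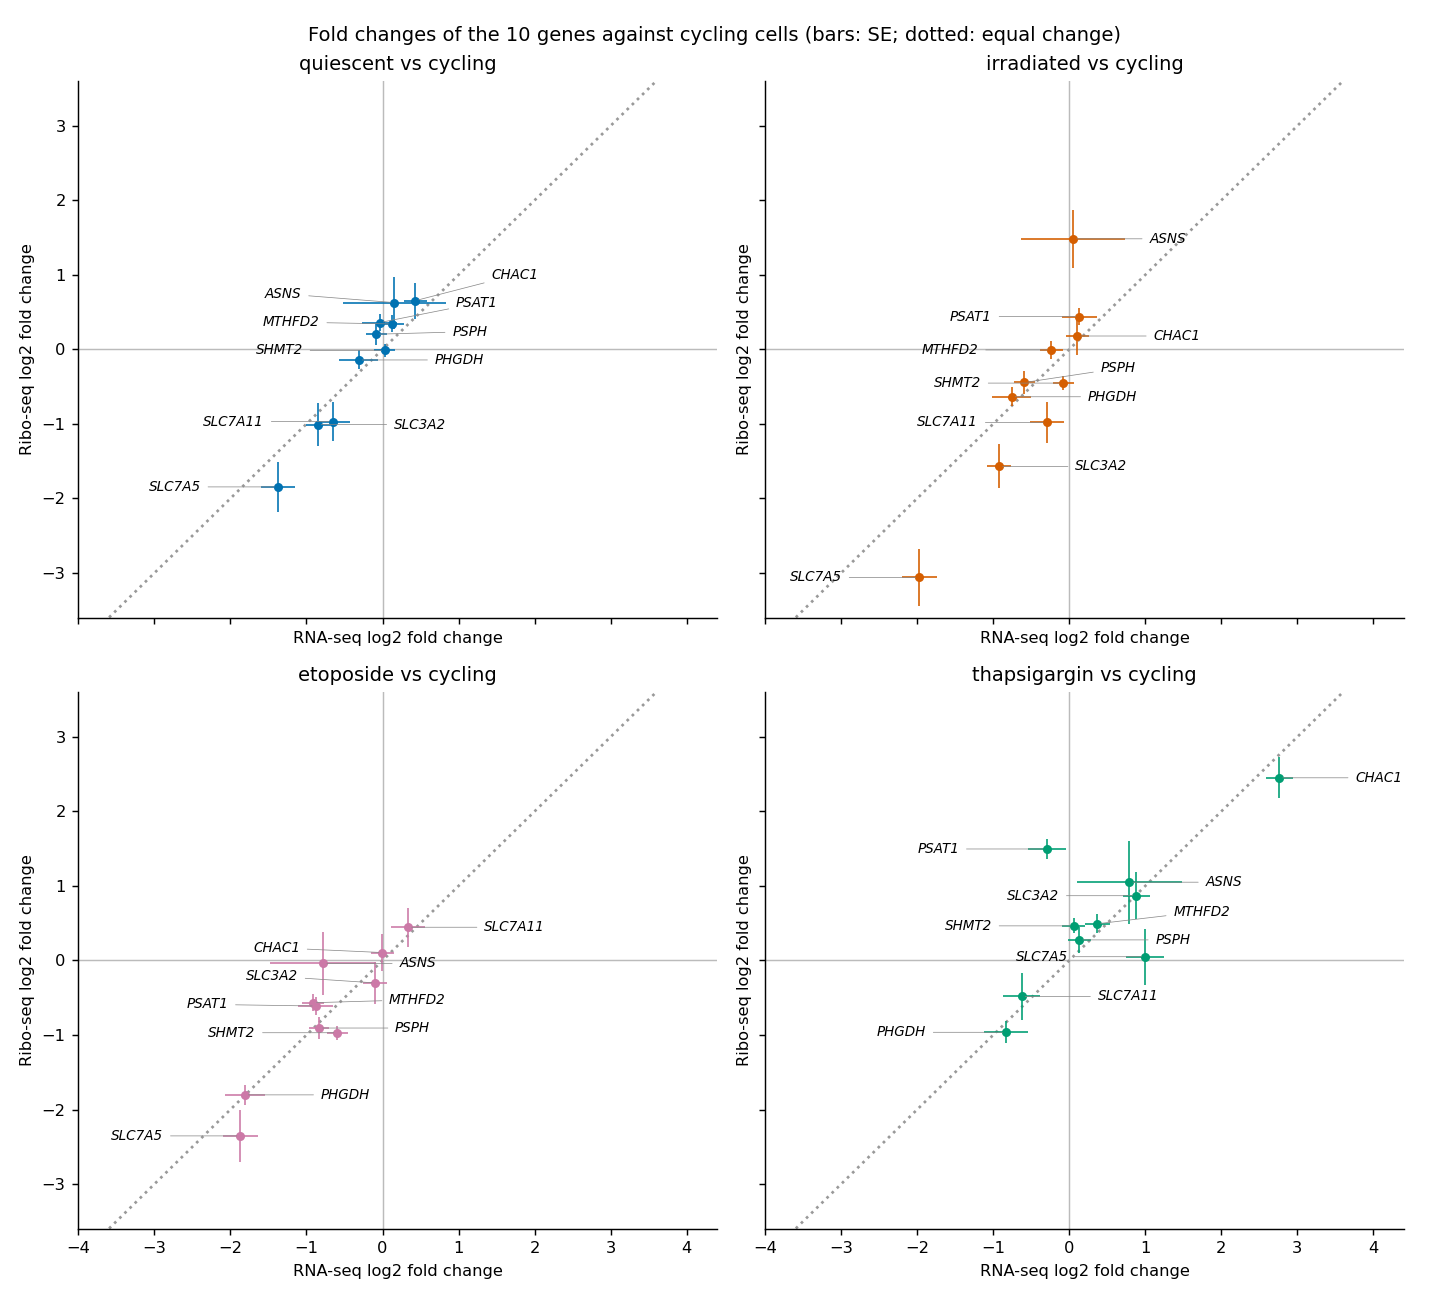
Log2 fold changes of the 10 genes against cycling cells in RNA-seq (x axis) and Ribo-seq (y axis), 1 panel per state, with bars of 1 SE and a dotted line of equal change. SLC7A5 lies lowest in quiescent, irradiated and etoposide cells. Under thapsigargin CHAC1 lies highest and PSAT1 stands far above the line (1.50 in Ribo-seq, -0.30 in RNA-seq).

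ASNS, the asparagine synthetase (ENSG00000070669, chr7:97851677-97928441 in GRCh38.p14, the build of all positions here), rested on few reads, and its higher footprint level in irradiated cells did not hold once pseudogene counts were added. It had 325 reads over the 13 RNA-seq and 210 over the 14 Ribo-seq libraries, with 4 to 91 and 3 to 38 per library. RefSeq places the long noncoding RNA CZ1P-ASNS over 99.4% of the gene's span, and the counts of the pseudogenes ASNSP1, ASNSP3, ASNSP4 and ASNSP6 summed to 108% of the ASNS footprint counts in cycling, 62.5% in quiescent, 23.1% in irradiated, 70% in etoposide and 11.1% in thapsigargin libraries. The part of the long noncoding RNA in these values was not tested. RNA-seq levels were 0.803 and 0.623 CPM for cycling, 1.08, 0.982 and 0.323 for quiescent, 1.18, 0.430 and 0.629 for irradiated, 0.140, 0.266 and 0.809 for etoposide and 0.878 and 1.60 for thapsigargin libraries. Only the thapsigargin libraries lay clear of the cycling ones, above them, and no RNA-seq difference passed the test (thapsigargin 0.79 ± 0.69, log2 ± SE). Ribo-seq levels were 1.66, 1.15 and 0.640 CPM for cycling and 3.69, 3.40 and 2.57 for irradiated libraries, which did not overlap, and the log2 difference was 1.48 ± 0.39 (edgeR adjusted p = 0.0075). This call was lost with the pseudogene counts added to those of ASNS, an alternative chosen after seeing the data (0.75, adjusted p = 0.123), and without irradiated Ribo-seq replicate 1 (adjusted p = 0.0504). Quiescent libraries had 1.80, 1.62 and 1.95, etoposide 1.40, 0.778 and 1.21 and thapsigargin 3.27 and 1.57 CPM in Ribo-seq, and none of these differences passed the test. For thapsigargin the change was 1.05 ± 0.56 (95% interval -0.04 to 2.14), and with the pseudogene counts added it was 0.18, adjusted p = 0.806.

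PHGDH, which takes the first step of serine synthesis from a glycolytic intermediate (ENSG00000092621, chr1:119711934-119744215), fell most after etoposide and less after radiation. RNA-seq levels were 149 and 149 CPM for cycling, 92.8, 90.3 and 80.6 for irradiated and 30.7, 41.6 and 54.4 for etoposide libraries, with no overlap between these groups. The log2 fold change was -1.81 ± 0.26 after etoposide (adjusted p = 0.000133, edgeR) and -0.76 ± 0.26 after radiation (adjusted p = 0.0369). Ribo-seq levels were 494, 502 and 522 CPM for cycling, 308, 321 and 348 for irradiated and 148, 120.0 and 167 for etoposide libraries, again without overlap. These gave -1.80 ± 0.13 (adjusted p = 1.89e-07) and -0.64 ± 0.13 (adjusted p = 0.0015). The irradiated RNA-seq call was lost under 7 alternatives, among them the replicate block, no filter on low counts and leaving out any 1 cycling or irradiated library (adjusted p up to 0.138). Quiescent libraries, at 134, 134 and 90.2 CPM in RNA-seq and 423, 408 and 544 in Ribo-seq, were not called. Under thapsigargin footprints were 244 and 274 CPM, below all cycling libraries (-0.96 ± 0.15, adjusted p = 0.000222). RNA-seq levels there were 57.6 and 109 CPM, also below, with a change of -0.83 ± 0.29 that missed the threshold (adjusted p = 0.052) and passed it under 7 alternatives, DESeq2 and the replicate block among them.

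PSAT1, the aminotransferase of the second step (ENSG00000135069, chr9:78297125-78330093), fell after etoposide, and its footprints rose in the other 3 states. RNA-seq levels were 168 and 164 CPM for cycling and 63.2, 82.9 and 125 for etoposide libraries (-0.88 ± 0.23, edgeR adjusted p = 0.00891), and the call was lost without cycling RNA-seq replicate 1 (adjusted p up to 0.0559). Ribo-seq levels were 202, 211 and 227 CPM for cycling and 123, 126 and 170.3 for etoposide libraries (-0.61 ± 0.12, adjusted p = 0.00128). Quiescent footprints (284, 263 and 274 CPM) and irradiated footprints (262, 293 and 314 CPM) lay above all cycling ones. Their changes were 0.36 ± 0.12 (adjusted p = 0.0413) and 0.44 ± 0.12 (adjusted p = 0.00886), beside -0.04 ± 0.23 and 0.13 ± 0.23 in RNA-seq. The quiescent call was lost without any 1 cycling Ribo-seq library, irradiated replicate 2 or quiescent replicate 1 (adjusted p up to 0.132). Thapsigargin libraries had 587 and 616 CPM in Ribo-seq, the highest of all states, a 2.82-fold rise relative to other genes (1.50 ± 0.13, edgeR adjusted p = 1.94e-06). In RNA-seq they had 106 and 164 CPM, below both cycling libraries, with a change that did not pass the test (-0.30 ± 0.25). Counts of its annotated pseudogenes were 1.81% of PSAT1 footprint counts under thapsigargin and 2.45 to 4.16% in the other states.

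PSPH, the phosphatase that releases serine (ENSG00000146733, chr7:56011064-56051444), fell in both senescent states. RNA-seq levels were 54.1 and 46.9 CPM for cycling, 29.3, 37.3 and 34.1 for irradiated and 28.0, 29.7 and 27.3 for etoposide libraries, and both senescent groups lay below the cycling one. They changed by -0.59 ± 0.14 (adjusted p = 0.00419 in edgeR) and -0.83 ± 0.14 (adjusted p = 0.000346). Ribo-seq levels were 60.5, 58.0 and 58.5 CPM for cycling, 50.6, 41.9 and 36.8 for irradiated and 32.1, 31.3 and 31.1 for etoposide libraries. Footprints thus changed by -0.44 ± 0.15 (adjusted p = 0.0324) and -0.91 ± 0.15 (adjusted p = 0.000414). The irradiated RNA-seq call was lost without cycling RNA-seq replicate 1 (adjusted p up to 0.0695), and the irradiated Ribo-seq call with RLE size factors and without any 1 of 7 libraries, all 3 cycling ones among them (adjusted p up to 0.175). Quiescent levels (45.9, 44.2 and 52.9 CPM in RNA-seq, 71.4, 71.8 and 60.6 in Ribo-seq) and thapsigargin levels (58.5 and 52.2 and 56.1 and 86.6 CPM) were not called. Counts of the pseudogene PSPHP1 were 8.09 to 23.2% of PSPH counts in RNA-seq, highest after etoposide (23.2%), and with them added the RNA-seq changes after radiation (-0.50, adjusted p = 0.0133) and after etoposide (-0.65, adjusted p = 0.00267) were still called. In Ribo-seq they were 0 to 0.465%.

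SHMT2, the mitochondrial enzyme that splits serine into glycine and a one-carbon unit (ENSG00000182199, chr12:57229711-57234935), fell after etoposide in both assays and after radiation in Ribo-seq. RNA-seq levels were 247 and 234 CPM for cycling, 153, 153 and 173 for etoposide and 211, 252 and 219 for irradiated libraries, and only the etoposide group lay clear of cycling (-0.59 ± 0.14, edgeR adjusted p = 0.00438). Ribo-seq levels were 373, 344 and 375 CPM for cycling, 192, 172 and 194 for etoposide and 250.4, 262 and 286 for irradiated libraries. Those are changes of -0.97 ± 0.09 (adjusted p = 2.49e-06) and -0.45 ± 0.09 (adjusted p = 0.00151). Quiescent levels (275, 264 and 199.97 CPM in RNA-seq, 334, 348 and 399.6 in Ribo-seq) overlapped cycling. Under thapsigargin footprints were 503 and 501 CPM, above all others, with a change of 0.46 ± 0.10 (adjusted p = 0.00253), beside 244 and 259 CPM in RNA-seq. This rise turned into a fall (-0.35, adjusted p = 0.0181) with the counts that ignore strand, so its direction is uncertain. Those counts held 45.7 to 46.1% of the stranded SHMT2 footprints in thapsigargin libraries and 77.1 to 87.1% in the other states, against 97.0 to 97.2% and 95.3 to 96.9% in RNA-seq. RefSeq has COXFA4L2 overlapping SHMT2 over 33 bases.

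MTHFD2, which oxidizes the mitochondrial one-carbon unit (ENSG00000065911, chr2:74198615-74217565), fell after etoposide. RNA-seq levels were 451 and 419 CPM for cycling and 241, 229 and 223 for etoposide libraries (-0.91 ± 0.15, edgeR adjusted p = 0.000401), and Ribo-seq levels 191, 200.02 and 199 and 111, 133 and 154 CPM (-0.57 ± 0.12, adjusted p = 0.00181). After radiation RNA-seq levels were 328, 383 and 395 CPM, below both cycling libraries but not called (-0.24 ± 0.15). Irradiated footprints of 196, 202 and 189 CPM overlapped cycling, with a 95% interval of the change of -0.23 to 0.22. Footprints rose in quiescent libraries (230.0, 263 and 254 CPM, 0.34 ± 0.11, adjusted p = 0.0464) and in thapsigargin libraries (304 and 249 CPM, 0.49 ± 0.13, adjusted p = 0.00759). The quiescent call was lost under 9 alternatives, unstranded counts and each cycling library among them (adjusted p up to 0.131). The thapsigargin call was lost without thapsigargin Ribo-seq replicate 1 (adjusted p up to 0.103). RNA-seq levels were 434, 416 and 575 CPM for quiescent and 629.8 and 493 for thapsigargin libraries, neither of them called.

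**Figure D2:**
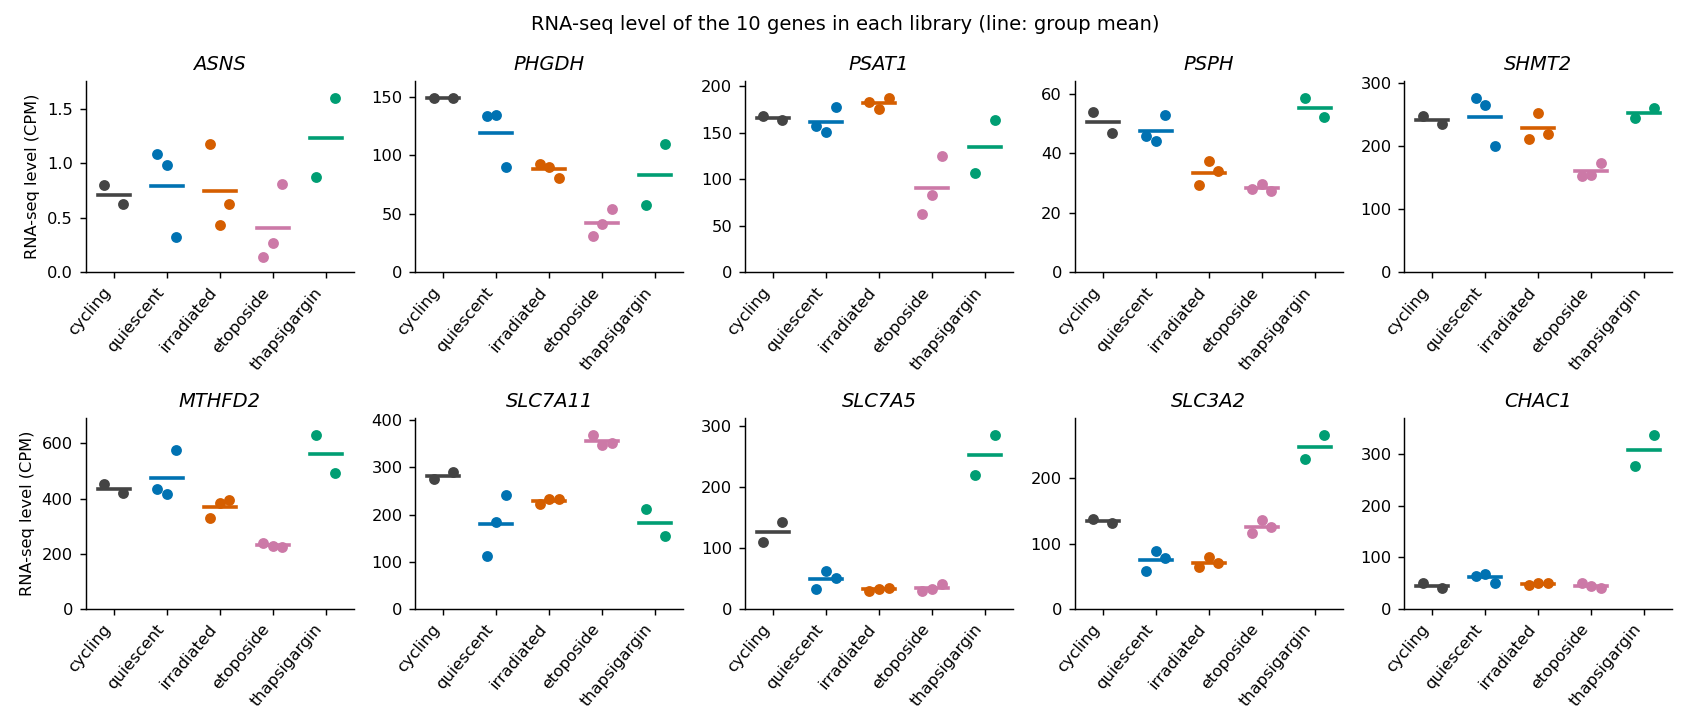
RNA-seq level in CPM (y axes from 0) of each gene in each of the 13 libraries (points) by state (x axis), with a line at the group mean. PHGDH is lowest in etoposide libraries (30.7, 41.6 and 54.4 CPM), and CHAC1 in thapsigargin libraries (278 and 337 CPM) stands above every other library.

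SLC7A5, the light chain of the LAT1 transporter that imports leucine and other large neutral amino acids (ENSG00000103257, chr16:87830023-87869507), had the largest falls of the 10 genes. RNA-seq levels were 110.3 and 142 CPM for cycling, 32.7, 62.3 and 50.9 for quiescent, 29.5, 32.6 and 34.1 for irradiated and 29.4, 32.8 and 41.4 for etoposide libraries, and no library of the latter 3 states reached the cycling ones. They changed by -1.37 ± 0.23 (adjusted p = 0.00172 in edgeR), -1.97 ± 0.23 (adjusted p = 2.27e-05) and -1.87 ± 0.23 (adjusted p = 3.27e-05). Footprint levels were 172, 155 and 195 CPM for cycling, 18.2, 52.6 and 74.4 for quiescent, 17.7, 20.4 and 24.8 for irradiated and 30.7, 35.2 and 36.1 for etoposide libraries. Footprints fell by 1.85, 3.06 and 2.35 on the log2 scale (SE 0.34, 0.38 and 0.35), with the lowest adjusted p after radiation (3.86e-05, edgeR). Counts that ignore strand held 63.2 to 67.0% of the stranded SLC7A5 footprints in cycling and 61.4 to 70.6% in quiescent libraries. In irradiated and etoposide libraries they held 74.7 to 94.4% and 82.3 to 91.6%, so the size of these 2 falls depends on the counting. RefSeq has SLC7A5-AS1 overlapping SLC7A5 over 1423 bases. Thapsigargin libraries had 219.9 and 284 CPM in RNA-seq, above both cycling libraries (1.00 ± 0.25, adjusted p = 0.0113). Their footprints, 169 and 190.5 CPM, lay among the cycling ones (0.05 ± 0.38, 95% interval -0.69 to 0.79). The RNA-seq rise was lost without cycling RNA-seq replicate 1 or thapsigargin RNA-seq replicate 2 (adjusted p up to 0.112).

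SLC3A2, the heavy chain 4F2hc that brings both light chains to the cell surface (ENSG00000168003, chr11:62856109-62888860), fell in quiescent and irradiated cells and rose under thapsigargin. RNA-seq levels were 138 and 132 CPM for cycling, 57.5, 88.8 and 77.7 for quiescent, 64.3, 79.2 and 69.7 for irradiated and 116, 137 and 125 for etoposide libraries. Quiescent and irradiated libraries lay below cycling (-0.85 ± 0.16, edgeR adjusted p = 0.00357, and -0.92 ± 0.16, adjusted p = 0.000608), while etoposide libraries overlapped it (95% interval -0.41 to 0.22). Ribo-seq levels were 406, 358 and 450.2 CPM for cycling, 90.5, 207 and 306 for quiescent, 127, 133 and 149 for irradiated and 313, 332 and 339.7 for etoposide libraries. Changes were -1.01 ± 0.29 (adjusted p = 0.0223) and -1.57 ± 0.29 (adjusted p = 0.000911), and etoposide footprints, though all below cycling, were not called (-0.30 ± 0.28). Quiescent replicate 1 was the lowest of its group for SLC3A2, SLC7A5 and SLC7A11 in both assays. The quiescent Ribo-seq call of SLC3A2 was lost under 5 alternatives, a fit of only the groups compared among them (adjusted p up to 0.121). Thapsigargin libraries had 230.2 and 267 CPM in RNA-seq (0.88 ± 0.18, adjusted p = 0.00317) and 728 and 749 in Ribo-seq (0.87 ± 0.31, adjusted p = 0.0377), above all cycling libraries. The Ribo-seq rise was lost under 6 alternatives, each thapsigargin library among them (adjusted p up to 0.122).

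SLC7A11, the light chain xCT that exchanges glutamate for cystine and so feeds glutathione synthesis (ENSG00000151012, chr4:138164097-138242349), had fewer footprints in quiescent and irradiated cells. Ribo-seq levels were 151, 189.9 and 191 CPM for cycling, 43.9, 105 and 123 for quiescent and 90.6, 95.2 and 83.9 for irradiated libraries, with no overlap with cycling. They changed by -0.97 ± 0.26 (adjusted p = 0.0184 in edgeR) and -0.98 ± 0.27 (adjusted p = 0.0108). The quiescent call was lost in a fit of only the groups compared and without cycling Ribo-seq replicate 2 or 3 (adjusted p up to 0.103). RNA-seq levels were 275 and 289 CPM for cycling, 113, 183 and 241 for quiescent and 223, 233 and 233 for irradiated libraries, all below cycling but not called (-0.66 ± 0.22 and -0.30 ± 0.23). Etoposide libraries lay above cycling in both assays, at 368, 348 and 352 CPM in RNA-seq and 204, 260.1 and 259.8 in Ribo-seq, with changes of 0.34 ± 0.23 and 0.45 ± 0.26 that did not pass the test. Thapsigargin libraries lay below cycling in both, at 211 and 154 and 130.2 and 124 CPM, and were not called (-0.63 ± 0.25 and -0.48 ± 0.31).

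CHAC1, the γ-glutamylcyclotransferase that cleaves glutathione (ENSG00000128965, chr15:40953471-40956512), had the largest rise of the 10 genes, under thapsigargin. RNA-seq levels were 49.8 and 41.0 CPM for cycling and 278 and 337 for thapsigargin libraries, a 6.78-fold rise (2.76 ± 0.18, edgeR adjusted p = 4.48e-07). Ribo-seq levels were 44.6, 25.9 and 36.8 and 140.0 and 249 CPM, a 5.47-fold rise (2.45 ± 0.27, adjusted p = 1.68e-05). Both calls held in every alternative tried. Quiescent libraries had 64.4, 68.1 and 51.1 CPM in RNA-seq and 47.1, 44.9 and 76.1 in Ribo-seq, above every cycling library, but were not called (0.43 ± 0.15 and 0.65 ± 0.24). Irradiated (45.7, 50.6 and 50.4 CPM) and etoposide RNA-seq levels (50.6, 45.3 and 40.2 CPM) overlapped cycling, with 95% intervals of the change of -0.19 to 0.41 and -0.30 to 0.30. Footprints there were 36.9, 39.7 and 44.8 and 36.1, 37.7 and 41.3 CPM, also overlapping.

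**Figure D3:**
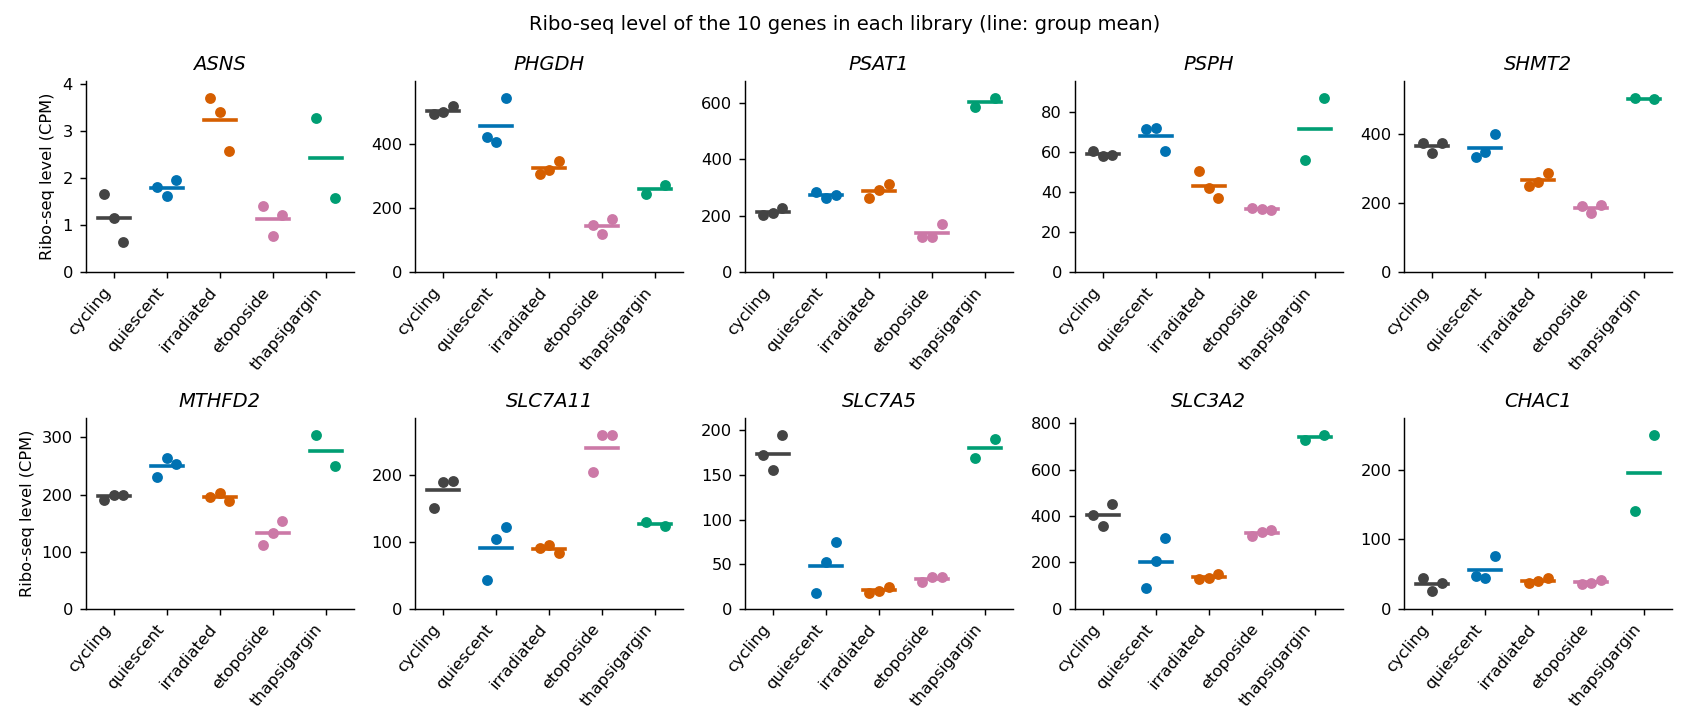
Ribo-seq level in CPM (y axes from 0) of each gene in each of the 14 libraries (points) by state (x axis), with a line at the group mean. PSAT1 and SLC3A2 are highest in thapsigargin libraries (587 and 616 CPM and 728 and 749 CPM), and SLC7A5 is low in quiescent, irradiated and etoposide libraries.

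Between the 2 senescent states, irradiated cells had higher levels of 4 enzyme genes and lower levels of the transporter genes SLC7A11 and SLC3A2. PHGDH, PSAT1, SHMT2 and MTHFD2 were higher than after etoposide in RNA-seq (4 of 10, background 9.68%), and these with ASNS in Ribo-seq (5 of 10, background 7.77%). With pseudogene counts added ASNS was not called (1.05, adjusted p = 0.0795), and PSPH was (0.46, adjusted p = 0.0497). SLC7A11 and SLC3A2 were lower in both assays (2 of 10, background 12.9% in RNA-seq and 13.9% in Ribo-seq), a count near the background. PHGDH differed by 1.06 ± 0.24 in RNA-seq (edgeR adjusted p = 0.00638) and 1.17 ± 0.13 in Ribo-seq (adjusted p = 0.000169). PSAT1 differed by 1.01 ± 0.21 (adjusted p = 0.00364) and 1.05 ± 0.12 (adjusted p = 0.000191). SLC3A2 differed by -0.83 ± 0.15 (adjusted p = 0.00144) and -1.27 ± 0.29 (adjusted p = 0.00775). SLC7A11 differed by -0.63 ± 0.20 (adjusted p = 0.0389) and -1.43 ± 0.27 (adjusted p = 0.00275). For these 4 genes the irradiated and etoposide libraries did not overlap in either assay. The RNA-seq call of SLC7A11 was lost without any 1 cycling, irradiated or etoposide library (adjusted p up to 0.118), that of SHMT2 without irradiated RNA-seq replicate 2 (adjusted p up to 0.0552), and the Ribo-seq call of ASNS also without etoposide replicate 2 or irradiated replicate 1 (adjusted p up to 0.0978). SLC7A5 and CHAC1 were not called, nor was PSPH without the pseudogene counts. For CHAC1 the 95% interval of the difference was -0.16 to 0.38 in RNA-seq and -0.44 to 0.58 in Ribo-seq.

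**Figure D4:**
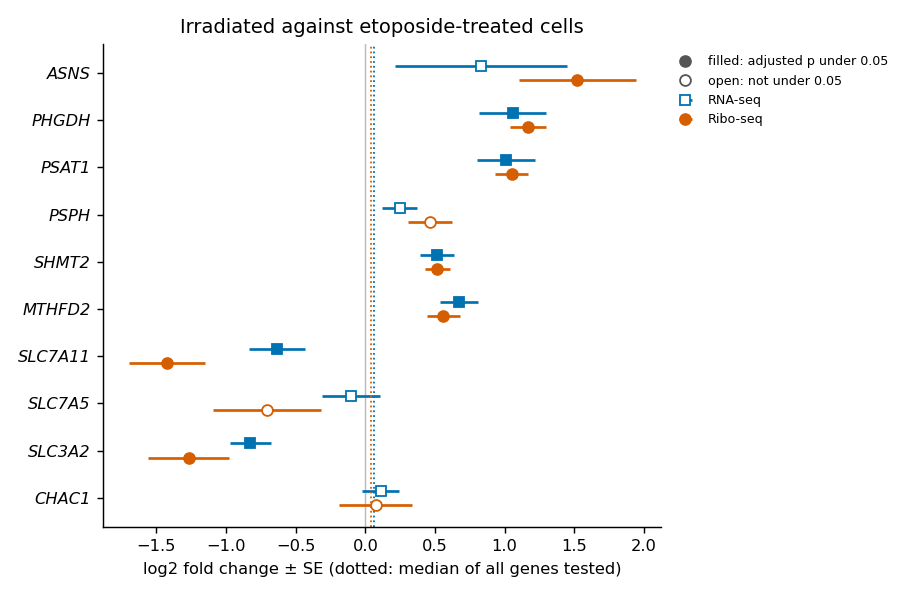
Log2 fold change of irradiated against etoposide-treated cells (x axis, with bars of 1 SE) for each gene (y axis) in RNA-seq (squares) and Ribo-seq (circles), filled where the adjusted p is under 0.05, with dotted lines at the medians of all genes tested. PHGDH and PSAT1 lie to the right (1.06 and 1.01 in RNA-seq) and SLC7A11 and SLC3A2 to the left (-1.43 and -1.27 in Ribo-seq).

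Set against quiescent cells, the mean of both senescent states was lower for PHGDH, PSPH, SHMT2, MTHFD2 and SLC7A5 in both assays. CHAC1 was lower as well in RNA-seq and PSAT1 in Ribo-seq, so that 6 of 10 were lower in each (background 17.6% and 13.6%). The mean hides that the 2 states lay apart for PSAT1 footprints, at 262, 293 and 314 CPM for irradiated, 123, 126 and 170.3 for etoposide and 284, 263 and 274 for quiescent libraries. Etoposide libraries were all below quiescent ones, and irradiated libraries overlapped them. In RNA-seq irradiated libraries also overlapped quiescent ones for PHGDH and SHMT2. For SLC7A5 both senescent groups overlapped the quiescent one in both assays. The mean of both states was higher for SLC7A11 alone, in RNA-seq (0.68 ± 0.18, edgeR adjusted p = 0.0112, background 16.6%) and Ribo-seq (0.70 ± 0.24, adjusted p = 0.0422, background 12.4%). Its footprints averaged 89.9 CPM in irradiated, 90.7 in quiescent and 241 in etoposide libraries, so that only the etoposide mean was the higher one. The states were not tested one by one against quiescent cells. PHGDH had the largest fall, -0.97 ± 0.20 in RNA-seq (adjusted p = 0.00224) and -1.08 ± 0.11 in Ribo-seq (adjusted p = 6.91e-06). PSPH changed by -0.63 ± 0.10 and -0.88 ± 0.13, and MTHFD2 by -0.70 ± 0.12 and -0.63 ± 0.10. The Ribo-seq calls of SLC7A11 and SLC7A5 were lost under 13 and 17 alternatives (adjusted p up to 0.118 and up to 0.298). The RNA-seq call of SLC7A5 was lost without etoposide replicate 1 or 2, irradiated replicate 1 or quiescent replicate 2 or 3 (adjusted p up to 0.189), and that of SHMT2 without quiescent replicate 1 or 2 (adjusted p up to 0.094). That of CHAC1 was lost without irradiated replicate 1 or quiescent replicate 1 or 2 (adjusted p up to 0.117).

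Translational efficiency (TE), the Ribo-seq level of a gene over its RNA-seq level, was called for 1 gene in 1 comparison, PSAT1 under thapsigargin. It rose by 1.77 ± 0.30 on the log2 scale, 3.41-fold (edgeR adjusted p = 0.000244, interaction of library type and state). The call held in every alternative tried. Of all genes tested, 20.8% were called under thapsigargin and 7.89% called higher, and their median change was -0.15. The log2 TE of PSAT1 went from 0.38 ± 0.20 in cycling cells, above 67.3% of genes, to 2.15 ± 0.23 under thapsigargin, above 97.6%. In cycling cells PHGDH and SLC3A2 had TE levels above 96.7% and 95.5% of genes, SLC7A11 and MTHFD2 above 29.0% and 16.7%. These ranks come from whole-gene counts with no correction for length, so they do not compare how well different genes are translated. SLC7A5 had a TE change of -0.98 ± 0.46 under thapsigargin, which missed the threshold (adjusted p = 0.133). It passed in a fit of only the groups compared and without quiescent Ribo-seq replicate 1 (adjusted p down to 0.024).

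In the other 5 comparisons 0 members had a TE change called by edgeR, and 0 by DESeq2. The share of all genes called was 0.00854% for quiescent, 0.0512% for irradiated and 0.0683% for etoposide against cycling cells. It was 0.0427% for senescent against quiescent and 0% for irradiated against etoposide-treated cells, where 768 of 11713 genes had an unadjusted p under 0.05 and DESeq2 called 6. At an unadjusted p under 0.05 there was 1 member each after radiation, after etoposide and for senescent against quiescent cells, and 0 in the other 2 comparisons. Of all 11713 genes, 782, 448 and 565 had such a p in the first of these, in that order, and 405 in quiescence. A count of 1 thus does not set the members apart. SLC7A5 after radiation had a TE change of -0.97 ± 0.44 (edgeR adjusted p = 0.691, 95% interval -1.82 to -0.12). In a fit of only irradiated and cycling libraries its adjusted p was 0.00102. That fit called 728 of 11713 genes, only 50 of them higher, against 6 called with all states. The size of the SLC7A5 footprint fall also depends on the counting, as given earlier.

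**Figure D5:**
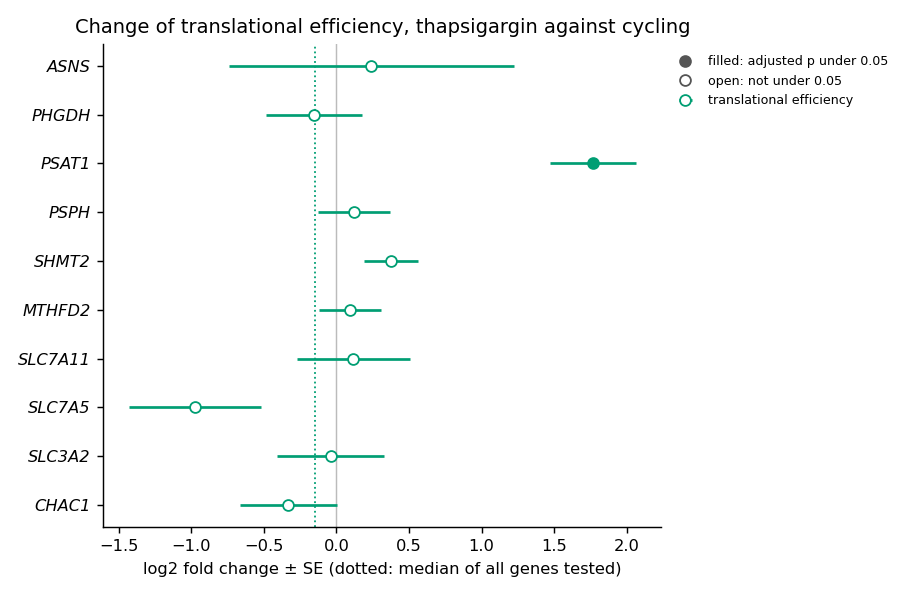
Log2 change of translational efficiency under thapsigargin against cycling cells (x axis, with bars of 1 SE) for each gene (y axis), filled where the adjusted p is under 0.05, with a dotted line at the median of all genes tested (-0.15). PSAT1 (1.77) is the filled point, and SLC7A5 (-0.98) lies farthest to the left.

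Across libraries the genes did not vary as 1 block. Over the 45 pairs of members the median Pearson r of log2 CPM was 0.423 in the 13 RNA-seq and 0.392 in the 14 Ribo-seq libraries. These are descriptions, since libraries share states, depth and processing. In RNA-seq the highest was PSPH with MTHFD2 (0.925) and the lowest SHMT2 with SLC7A11 (-0.806). In Ribo-seq the highest was SHMT2 with MTHFD2 (0.875) and the lowest ASNS with SLC7A11 (-0.63). The transporter partners SLC7A5 and SLC3A2 had r = 0.808 in RNA-seq and 0.858 in Ribo-seq. Outside the 10, the genes most like ASNS were CISH, ZNF865, NAA80, SART1 and OSBPL5 in RNA-seq (r from 0.878 to 0.890 over 13 libraries) and TRAPPC9, KRBA1, ZNF334, WARS1 and MGMT in Ribo-seq (r from 0.862 to 0.891 over 14), which rest on the few ASNS reads.

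ATF4 itself rose under thapsigargin and differed between the senescent states. Its RNA-seq levels were 563 ± 19.6 CPM (SD, n = 2) in cycling, 648 ± 43.6 (n = 3) in quiescent, 608 ± 26.2 (n = 3) in irradiated, 464 ± 32.7 (n = 3) in etoposide and 951 ± 30.0 (n = 2) in thapsigargin libraries. In Ribo-seq they were 186 ± 17.0, 213 ± 30.5, 259 ± 4.20 and 146 ± 12.1 CPM (n = 3 each) and 536 ± 92.9 CPM (n = 2). ATF4 footprints changed by 0.48 ± 0.12 after radiation (edgeR adjusted p = 0.00637), -0.35 ± 0.12 after etoposide (adjusted p = 0.0375) and 1.53 ± 0.13 under thapsigargin. They were higher in irradiated than in etoposide-treated cells by 0.83 ± 0.12 (adjusted p = 0.000744), and its RNA by 0.39 ± 0.09 (adjusted p = 0.00944). TRIB3, a pseudokinase gene induced in this response, rose in RNA-seq in quiescent (0.57 ± 0.13), irradiated (0.85 ± 0.13) and thapsigargin cells (2.12 ± 0.15), and was not called after etoposide (-0.26 ± 0.13). DDIT3, which encodes CHOP, rose in RNA-seq after radiation (1.23 ± 0.14) and etoposide (0.81 ± 0.14), but its footprints rose after radiation (1.29 ± 0.23) and were not called after etoposide (0.17 ± 0.23). Footprints of DDIT3 were higher in irradiated than in etoposide-treated cells by 1.12 ± 0.23 (adjusted p = 0.0042).

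Of 15 genes listed as ATF4 and companion regulators, 5 rose and 0 fell by edgeR in quiescent RNA-seq, 7 and 1 for irradiated, 6 and 3 for etoposide and 10 and 0 in thapsigargin RNA-seq. Of all genes 5.18%, 16.2%, 16.8% and 11.7% rose and 10.4%, 18.8%, 17.8% and 12.8% fell in the same order, so that the share of falls after etoposide was near the background. The medians of the list were 0.36, 0.39, 0.43 and 0.94. In Ribo-seq 7 rose and 1 fell under thapsigargin (background 20% and 24.4%), led by DDIT3 (5.15 ± 0.25) and PPP1R15A (4.36 ± 0.23). The product of PPP1R15A brings a phosphatase to eIF2 and so helps to end the response. The 1 that fell was EIF4EBP1 (-0.87 ± 0.22), which encodes a brake on cap-dependent translation. Between the senescent states 9 were higher in irradiated RNA-seq and 2 lower (background 9.68% and 12.9%). The largest differences were in TRIB3 (1.11 ± 0.12, adjusted p = 7.6e-05) and the bZIP gene JDP2 (0.96 ± 0.14), and STC2, a secreted glycoprotein gene, was lower (-1.02 ± 0.15).

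Among the other amino acid transporters, falls outnumbered rises in quiescent, irradiated and etoposide cells, as they also did among all genes. In RNA-seq 7, 13 and 9 of 19 tested were lower in quiescent, irradiated and etoposide cells and 0, 1 and 2 higher, with medians of -0.56, -0.84 and -0.59. The background was 10.4%, 18.8% and 17.8% lower and 5.18%, 16.2% and 16.8% higher. In Ribo-seq 14, 15 and 6 of 18 were lower and 0, 0 and 2 higher, with medians of -1.17, -1.60 and -0.61. Here 14.6%, 22.6% and 17.6% of all genes were lower and 7.09%, 17.2% and 16.4% higher. After radiation the largest Ribo-seq falls were those of SLC7A1, a carrier of arginine and lysine (-2.87 ± 0.38, edgeR adjusted p = 5.7e-05), and SLC7A6, another partner of SLC3A2 (-2.63 ± 0.31, adjusted p = 2.22e-05). In quiescence they were SLC38A4 (-1.77 ± 0.33) and SLC36A4 (-1.75 ± 0.47). After etoposide SLC1A1, a glutamate transporter, and SLC43A2, a neutral amino acid transporter, rose (2.60 ± 0.49 and 1.66 ± 0.26), while SLC7A1 and the glycine transporter SLC6A9 fell (-1.61 ± 0.34 and -1.49 ± 0.24). Irradiated cells were lower than etoposide-treated ones in 10 of 18 in Ribo-seq and higher in 0 by edgeR (background 13.9% and 7.77%), with a median of -1.14 (all genes 0.04).

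Under thapsigargin, where 11.7% of all genes were higher and 12.8% lower in RNA-seq and 20% and 24.4% in Ribo-seq, 1 of these transporters was higher and 2 were lower in RNA-seq, and 2 were higher and 3 lower in Ribo-seq. SLC7A1 rose in both assays (1.25 ± 0.26 in RNA-seq, 1.05 ± 0.36 in Ribo-seq), and SLC38A2, a carrier of glutamine and alanine, in Ribo-seq (1.54 ± 0.25, edgeR adjusted p = 0.000291). SLC43A2 fell in Ribo-seq (-2.86 ± 0.57). SLC1A3, a glutamate transporter, had 0 footprints under thapsigargin and 47 over the cycling libraries, at least 1.71-fold lower with 3 counts over the group as the floor.

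Of the list of 20 other genes of serine, glycine and one-carbon metabolism, 18 were tested in RNA-seq and 16 in Ribo-seq. In RNA-seq 2, 4 and 5 were lower and 0, 1 and 0 higher in quiescent, irradiated and etoposide cells. The RNA-seq shares lower in quiescent and irradiated cells were near those of all genes (10.4% and 18.8%, and 17.8% after etoposide). The background higher was 5.18%, 16.2% and 16.8%. SHMT1, the cytosolic relative of SHMT2, fell after radiation (-1.88 ± 0.17) and after etoposide (-2.18 ± 0.17). In Ribo-seq 1, 6 and 6 of 16 were lower and 1, 1 and 1 higher in the same order. There 14.6%, 22.6% and 17.6% of all genes were lower and 7.09%, 17.2% and 16.4% higher. Footprints of TYMS, which makes thymidylate, fell by 0.99, 1.68 and 1.83 on the log2 scale in the 3 states. Those of MTR, the methionine synthase, rose (0.34 ± 0.11, 0.65 ± 0.11 and 0.32 ± 0.11). Proliferation markers, of which the levels are given earlier, were lower than in cycling cells in these states, and their part was not tested. Irradiated cells were higher than etoposide-treated cells in 3 and lower in 0 in RNA-seq (background 9.68% and 12.9%), led by the mitochondrial ALDH1L2 (0.71 ± 0.23) and MTHFD1L (0.54 ± 0.16). Under thapsigargin 0 of 18 were higher and 2 lower in RNA-seq (background 11.7% and 12.8%). In Ribo-seq 2 of 16 were higher and 1 lower (background 20% and 24.4%). The 2 with higher footprints under thapsigargin were DLD, a subunit of the glycine cleavage system, and ATIC, of purine synthesis (0.95 ± 0.11 and 0.30 ± 0.09). MTHFD2L, the relative of MTHFD2, had 0 footprints there and 101 over the cycling libraries, at least 3.81-fold lower.

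Among 19 other enzymes of amino acid synthesis and breakdown tested in RNA-seq, 0 were higher and 0 lower in quiescent, 2 and 1 for irradiated, 2 and 5 for etoposide and 3 and 2 in thapsigargin cells by edgeR. Among all genes 16.2% and 18.8% were higher and lower in irradiated and 16.8% and 17.8% in etoposide cells. The shares were 11.7% and 12.8% in thapsigargin and 5.18% and 10.4% in quiescent cells. Those of the list under thapsigargin were near these in RNA-seq. GLUL, the glutamine synthetase, and BCAT1, which transaminates branched-chain amino acids, fell after etoposide (-1.002 ± 0.10 and -0.69 ± 0.11) and were higher in irradiated than in etoposide-treated cells (0.91 ± 0.09 and 0.76 ± 0.10). Under thapsigargin CTH, which makes cysteine from cystathionine, rose in RNA-seq (1.59 ± 0.20, adjusted p = 0.000119) and Ribo-seq (1.15 ± 0.24). ASS1, of arginine synthesis, fell in both (-1.50 ± 0.17 and -3.76 ± 0.46). In Ribo-seq 7 of the 18 tested were higher and 2 lower under thapsigargin (background 20% and 24.4%), with a median of 0.22 (all genes -0.11).

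Of 11 tested genes of glutathione synthesis and breakdown, 4 were higher and 2 lower in irradiated and 5 and 2 in etoposide RNA-seq. The shares lower were near those of all genes (18.8% and 17.8%), beside 16.2% and 16.8% higher. GCLM, the modifier subunit of the enzyme of the first step, rose after radiation (1.02 ± 0.17 in RNA-seq, 1.34 ± 0.15 in Ribo-seq), and ANPEP, a surface peptidase, fell after radiation (-2.14 ± 0.24) and etoposide (-2.84 ± 0.25). Under thapsigargin, where CHAC1 rose, 0 were higher and 6 of 11 lower in Ribo-seq by edgeR (background 20% and 24.4%), with a median of -0.66 (all genes -0.11). In RNA-seq 0 were higher and 1 lower there (background 11.7% and 12.8%).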

How the data were processed

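RNA-seq (13 libraries) and Ribo-seq (14 libraries) of IMR90 cells in 5 states were used as the authors deposited them, as whole-number counts of reads per gene with no normalization. Per the submitters' processing notes the tools were bcl2fastq, STAR 2.7.10b with genome build hg38, and DESeq2 1.36.0. How each was run is not given in the sources used here. Per the labels' protocols, footprints of 25 to 40 nucleotides were selected. The reverse-strand counts of RNA-seq and the forward-strand counts of Ribo-seq were used, since the opposite strand held 3.56 to 10.7% of counts. Reads that name no gene were left out, 1.35 to 40.6% of reads unmapped, 9.43 to 66.9% mapped to several places, 1.45 to 12.8% in no feature.

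The 60534 IDs shared by the 2 gene lists hold 99.6 to 99.97% of gene counts. Symbols of 60461 were known, 40525 matched RefSeq by symbol and 19307 are protein coding. Two-sided tests used edgeR 4.0.16 (quasi-likelihood F-test, TMM, filterByExpr) in R 4.3.3 with limma 3.58.1, all 5 states in 1 fit per assay, and a model of library type by state over all 27 libraries for TE. Adjusted p is Benjamini-Hochberg over all 13291, 11764 and 11713 genes tested, and ± is the SE, from the F value. Intervals are 1.96 SE. In data simulated for thapsigargin against cycling, edgeR recovered 50% of genes changed by 1 and 90% of those changed by 2 on the log2 scale in RNA-seq (13037 genes), 44% and 87% in Ribo-seq (11491), and 20% and 65% for TE (11713). DESeq2 1.42.0, RLE size factors, no filter, all gene types, only the groups compared, unstranded counts, a replicate block, pseudogene counts added (chosen after seeing the data) and leaving out each library were alternatives. Deviations of same-numbered libraries from their group means correlated over 0.1 in all 3 pairs of cycling and quiescent Ribo-seq (0.155, 0.249 and 0.252). They also did in all 3 of etoposide RNA-seq and Ribo-seq (0.132, 0.370 and 0.193). The numbers were treated as pairing these, a choice made from the same values, which cannot show that the libraries are paired. Of the 23 same-numbered pairs of states in RNA-seq, 26 in Ribo-seq and 13 between assays, 10, 6 and 6 passed 0.1.

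All 10 members are named, and from each list up to 2 called genes with the largest rise and 2 with the largest fall per comparison described. Some genes that this rule names are not reported here. ATF4, DDIT3 and TRIB3 are named in any case. The genes most like ASNS are the 5 of highest r. Members and lists were chosen with earlier results of these data known.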

Additional observations from a re-analysis of the deposited data

Results flagged for a closer look

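Each difference here is between the responses to radiation and to etoposide, both against cycling cells, and was tested directly by the contrast of the 2 senescent states (edgeR, adjusted p under 0.05). In RNA-seq the log2 response to radiation minus that to etoposide was 1.06 for PHGDH, 1.01 for PSAT1, 0.512 for SHMT2 and 0.674 for MTHFD2, with higher levels in irradiated cells. It was -0.633 for SLC7A11 and -0.826 for SLC3A2, with higher levels in etoposide-treated cells. In Ribo-seq it was 1.52 for ASNS, 1.17 for PHGDH, 1.05 for PSAT1, 0.517 for SHMT2 and 0.56 for MTHFD2, and -1.43 for SLC7A11 and -1.27 for SLC3A2. The value of ASNS rests on few reads and was not called with pseudogene counts added (1.05, adjusted p = 0.0795). As given earlier, the RNA-seq call of SLC7A11 was lost without any single cycling, irradiated or etoposide library. That of SHMT2 was lost without irradiated RNA-seq replicate 2. All genes listed here were picked because this contrast called them.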

How the results depend on the processing

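Of 68 called member results, 47 held in every alternative. Over all 1481 alternatives of called results 1378 kept direction and call, 102 lost the call and 1 reversed, SHMT2 under thapsigargin in Ribo-seq with unstranded counts (-0.348). Of 3198 alternatives of results not called, 52 were called. The causes were not tested. Adding the counts of annotated pseudogenes, chosen after seeing the data, ended both ASNS calls. A fit of only the groups compared called 3 members for TE after radiation (0 with all states), 1 for TE of irradiated against etoposide-treated cells (0), 3 in Ribo-seq of quiescent cells (5) and 2 for TE under thapsigargin (1). Over all genes that fit called 728, 596, 1887 and 1065 in the same order, against 6, 0, 2556 and 2432 with all states. These shifts are therefore not particular to the members. Leaving out each library gave 2 to 4 members called in RNA-seq after radiation (lowest without cycling RNA-seq replicate 1) and 2 to 4 in RNA-seq of quiescent cells (highest without quiescent RNA-seq replicate 3). It gave 1 to 6 in Ribo-seq of quiescent cells (1 without cycling Ribo-seq replicate 3, 2 without replicate 1 or 2, and 3 without irradiated Ribo-seq replicate 2). Under thapsigargin it gave 2 to 5 in RNA-seq (2 without cycling RNA-seq replicate 1, 5 without quiescent RNA-seq replicate 1 or 3) and 1 to 2 for TE (2 without quiescent Ribo-seq replicate 1). Counts over all genes without each library are not reported here, so these ranges do not show a shift particular to the members.

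Where the replicate numbers were treated as pairing the libraries (cycling with quiescent Ribo-seq, and the 2 assays of etoposide), the replicate block changed no call of a member. The block was fitted over all states. Same-numbered pairs also correlated over 0.1 for cycling with thapsigargin RNA-seq (0.298 and 0.298) and etoposide with thapsigargin RNA-seq (0.654 and 0.178). So did those of cycling RNA-seq with Ribo-seq (0.141 and 0.193). Each involves a group of 2 libraries, whose deviations mirror each other, so these values cannot show whether the numbers pair the libraries. Elsewhere the numbers were not taken to pair libraries. With a replicate block 3 members were called in RNA-seq after radiation, 8 for senescent against quiescent cells and 4 under thapsigargin (4, 7 and 3 without), and the other counts of members were the same. Over all genes 4503, 4564 and 3283 were called in RNA-seq with the block and 4643, 4545 and 3256 without it. Counts over all genes moved by over 1.5 times in a fit of only the groups compared: RNA-seq from 2068 to 853 in quiescence and 3256 to 1507 under thapsigargin, Ribo-seq from 4000 to 6021 after etoposide and 2551 to 4134 for irradiated against etoposide. For TE they went from 2432 to 1065 under thapsigargin, 6 to 728 after radiation, 8 to 29 after etoposide, 0 to 596 for irradiated against etoposide and 1 to 0 in quiescence. DESeq2 called 6, 32, 40, 38 and 6 genes for TE in quiescence, after radiation, after etoposide, for senescent against quiescent and for irradiated against etoposide, where edgeR called 1, 6, 8, 5 and 0. The replicate block gave 0, 3, 13, 11 and 1, and RLE size factors 0 in quiescence. Footprints per 100 codons were not run. Thapsigargin Ribo-seq had the fewest counts, so low genes are least certain there.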
